A study of Rattus norvegicus with 10 samples.

Results

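The genes described here are 42 genes of autophagy and mitophagy, measured in sorted rat β-cells after silencing of the transcriptional repressor Scrt1. They were chosen by symbol for the role of their proteins in these pathways, and all 42 were found among the 23918 genes with values. They cover the ULK kinase complex that starts autophagy, the phosphatidylinositol 3-kinase complex that nucleates the membrane, membrane supply, the conjugation machinery, the Atg8 family that the machinery attaches to the membrane, the cargo receptors, mitophagy receptors, the pair of iron-sulfur CDGSH proteins Cisd1 and Cisd2, and the fusion factor Epg5. The choice was made knowing that Sh3glb1 and Cisd2 were lowered.

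Macroautophagy encloses cytoplasm in a double membrane, the autophagosome, and delivers it to the lysosome for digestion. Mitophagy is the same process directed at mitochondria, either through the kinase PINK1 and ubiquitin-binding receptors or through receptors that sit in the outer mitochondrial membrane, such as BNIP3L. β-cells, which make insulin in the pancreatic islet, rely on both to remove worn mitochondria and insulin granules, and mice without Atg7 in β-cells handle glucose poorly.

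Islets of adult Sprague-Dawley rats were dispersed and their β-cells were sorted by autofluorescence, then transfected with a pool of 4 siRNAs against rat Scrt1 (siScrt1) or with a negative control siRNA (siCtrl). With a single pool and a single control siRNA, loss of Scrt1 and other effects of these siRNAs cannot be told apart. RNA was taken 48 h after transfection. There were 5 libraries per group, named siCtrl 1 to 5 and siScrt1 A to E. The labels do not say whether the libraries came from separate animals, so the p-values measure the spread between these libraries, which may be technical.

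The libraries held 11901342 to 17444034 reads. TPM stands here for the deposited transcript level, which is relative to transcript length. Its sum differed between libraries, so it is not a share of the library total. The target Scrt1 had 8.78, 6.34, 8.60, 10.2 and 6.75 TPM in siCtrl and 3.40, 2.53, 2.58, 1.24 and 0.928 TPM in siScrt1 A to E. The knockdown thus left part of the transcript in every library (exact two-sided permutation test of CPM, p = 0.00794, the smallest value that 5 against 5 allows). The identity of the sorted cells was checked with marker genes. Summed β-cell markers, insulin included, ran from 332988 to 615367 TPM in siCtrl and from 386698 to 539769 TPM in siScrt1. The sum of α-cell markers ran from 205 to 626 and from 223 to 507 TPM, nearly all of it glucagon, and that of δ- and PP-cell markers from 40.0 to 167 and from 53.9 to 193 TPM. The 4 duct markers, of which only 2 reached 1 TPM in any library, summed to 109 to 161 and 132 to 159 TPM. The mesenchymal ones summed to at most 2.75 and 5.26, and the immune ones to at most 2.76 and 3.70. The acinar and endothelial ones stayed under 0.497 TPM in each library. Cela3b and Cd3e were at 0. No marker of any of these lists had an adjusted p-value under 0.05. In such bulk samples, fewer cells of a type and less RNA per cell cannot be told apart.

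After silencing of Scrt1, 3 of the 42 genes were lowered and none was raised. For 1 of the 3, Bnip3l, the call was lost in 8 of 10 fits that left out 1 library and in 4 of 9 other alternatives, which leaves 2. Cisd2, an iron-sulfur protein of the endoplasmic reticulum and mitochondria whose loss causes a form of Wolfram syndrome, a hereditary disease with diabetes, fell most. Sh3glb1, which encodes the membrane-bending protein Bif-1 (endophilin B1) and binds the Beclin 1 complex through UVRAG, came next, followed by the mitophagy receptor Bnip3l. These 3 genes are 7.14% of the members. Of the 12941 genes tested, 1.05% were called in either direction, with 0.68% lowered and 0.371% raised (limma, Benjamini-Hochberg adjusted p-value under 0.05 over all genes tested). Sh3glb1 and Cisd2 were known to be lowered when the list was made, so the higher share of members is no evidence of an excess. Without adjustment, 6 members (14.3%) had a p-value under 0.05, against 11.1% of all genes tested, which is near the background. They were the 3 called genes, Fundc1 and Tax1bp1 on the lower side (5.75% of all genes), and Pink1 on the higher side (5.34% of all genes).

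Cisd2 (ENSRNOG00000048258) had 31.8, 42.6, 32.2, 34.1 and 40.96 TPM in siCtrl 1 to 5 and 21.1, 18.1, 19.8, 18.6 and 21.2 TPM in siScrt1 A to E. The lowest control library was well above the highest siScrt1 library, and the spread was wider in the controls. The means were 36.3 ± 5.07 and 19.8 ± 1.42 TPM (SD, n = 5 each). The fitted log2 change was -0.88 with a 95% interval from -1.07 to -0.68 (SE 0.0918, adjusted p = 0.000912 in limma). Cisd2 has 1 transcript in the table, so no reads had to be shared between isoforms.

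Sh3glb1 (ENSRNOG00000012957) had 38.1, 42.9, 37.7, 39.5 and 40.1 TPM in siCtrl 1 to 5 and 28.4, 23.6, 27.6, 24.3 and 25.4 TPM in siScrt1 A to E. Again the groups did not overlap. The means were 39.7 ± 2.07 and 25.8 ± 2.06 TPM (SD, n = 5 each). The fitted log2 change was -0.62 with a 95% interval from -0.77 to -0.48 (SE 0.0682, adjusted p = 0.00105 in limma). Of its 2 transcripts, ENSRNOT00000017770 held 91.1% of the reads of the gene in siCtrl and fell with it (log2 fold change -0.64, limma adjusted p = 0.00333 over 17576 transcripts). The minor transcript ENSRNOT00000084337 had 61 to 116 reads in siCtrl and 58 to 77 in siScrt1, with a log2 fold change of -0.43 that did not pass the test (limma adjusted p = 0.476).

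Scrt1 belongs to the Snail family of zinc finger repressors, which bind the E-box CAGGTG. The bases ahead of the start site are shown for the 2 genes that fell most, together with the one CDGSH gene that holds this E-box. They were taken from RefSeq (build GRCr8) and are written in lower case in the direction of the gene, with the E-box in capitals where there is one. The stretch of Sh3glb1 covers chr2:236445141-236445390 on the minus strand, that of Cisd2 covers chr2:226527326-226527575 on the minus strand, and the shorter stretch of Cisd1 covers chr20:17254236-17254265 on the plus strand.
Sh3glb1: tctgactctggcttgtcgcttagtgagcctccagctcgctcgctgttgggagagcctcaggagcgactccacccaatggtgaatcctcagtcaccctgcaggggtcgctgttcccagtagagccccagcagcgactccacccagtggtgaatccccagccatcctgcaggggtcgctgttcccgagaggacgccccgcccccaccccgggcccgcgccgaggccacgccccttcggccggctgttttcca
Cisd2: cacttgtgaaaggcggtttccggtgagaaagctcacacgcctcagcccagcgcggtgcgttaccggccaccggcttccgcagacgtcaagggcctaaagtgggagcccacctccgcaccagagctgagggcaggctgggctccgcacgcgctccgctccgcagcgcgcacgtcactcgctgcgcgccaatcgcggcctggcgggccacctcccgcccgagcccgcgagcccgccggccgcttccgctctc
Cisd1: gttgtcctgagtCACCTGaaacgctctcaa

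Neither Sh3glb1 nor Cisd2 holds CAGGTG or its reverse complement CACCTG in the 250 bases before the start, and in Cisd1 it lies from -214 to -209. Among the 36 members with an entry in the RefSeq table, 5 (13.9%) held CAGGTG on either strand between 250 bases before and 50 bases after the start, namely Atg12, Atg14, Cisd1, Map1lc3b and Pik3r4, against 18.8% of all 33469 promoters of the same length. Cisd2 and Sh3glb1 were not among these 5, and the lowered Bnip3l had no entry. With so few lowered genes, this says little about the motif, and sites farther from the start were not examined. The longer CAACAGGTG, which contains the E-box, was in 0 of 36 members and in 0.203% of all promoters. CACGTG, the core of the site bound by the autophagy and lysosome regulator TFEB, was in 6 members (16.7%), Atg3, Atg5, Atg14, Bnip3, Epg5 and Pink1, against 6.42% of all promoters, and its extension TCACGTG was in 3 (8.33%) against 3.2%. The share of G and C in the 250 bases was 72% in Cisd2 and 66.8% in Sh3glb1, against a median of 59.8% over the matched members and 51.2% over all promoters. The motif shares above were not adjusted for this difference and were not tested. Rb1cc1, Becn1, Atg9a, Map1lc3a, Bnip3l and Fundc1 had no entry. A letter match describes these windows and does not show that a factor binds there, nor does its absence show that none does.

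**Figure D1:**
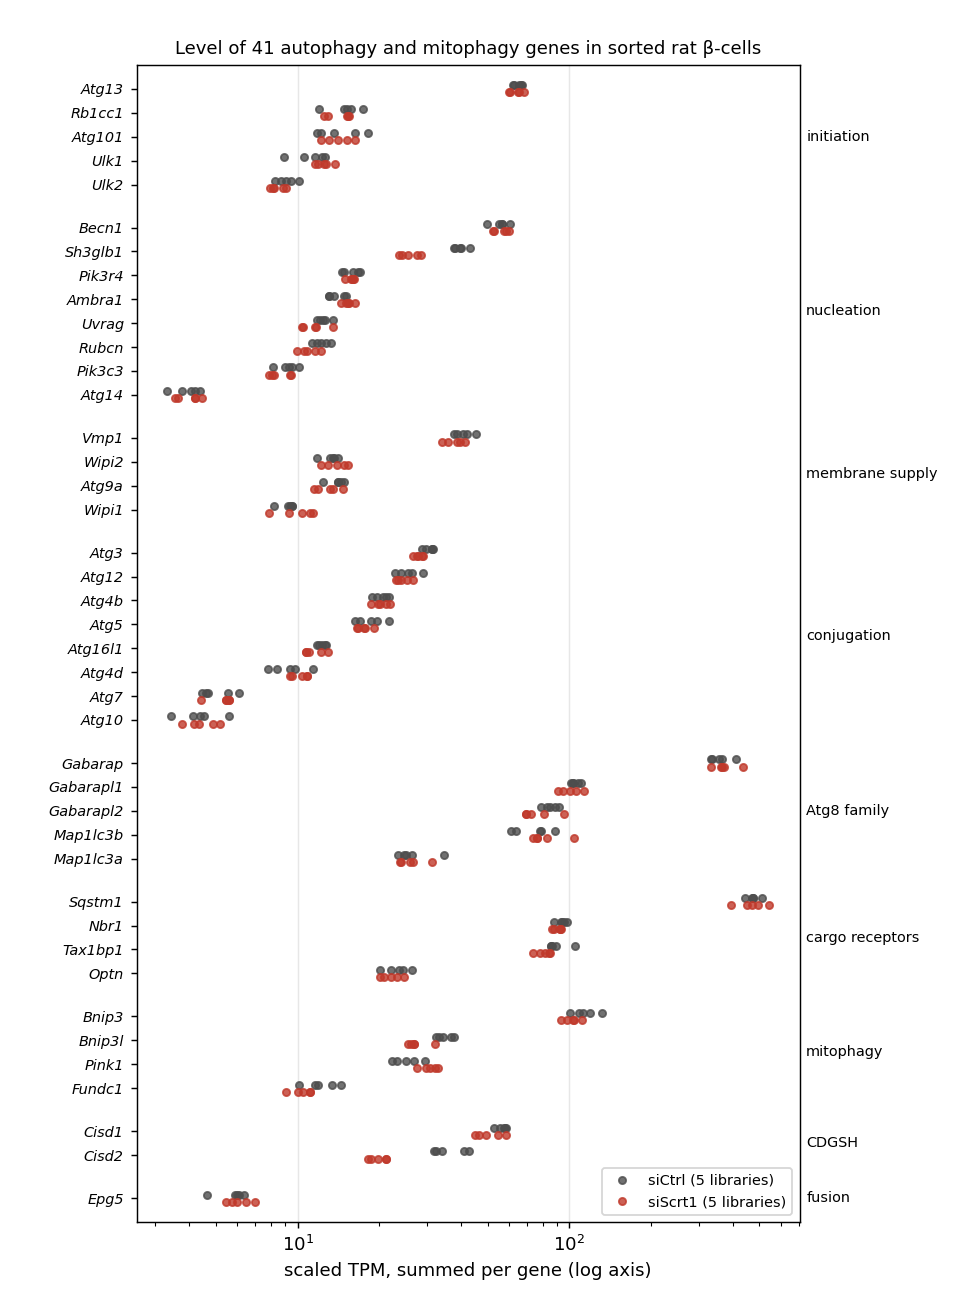
Level of 41 of the 42 genes in each library, as TPM summed per gene on a log axis, ordered by step and, within a step, by level (gray points, 5 siCtrl libraries; red points, 5 siScrt1 libraries). The levels run from about 4 TPM for Atg14 to 472 TPM for Sqstm1, and the red and gray points lie apart for Cisd2 and Sh3glb1. Calcoco1, which is at 0 in 4 libraries, is left out.

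**Figure D2:**
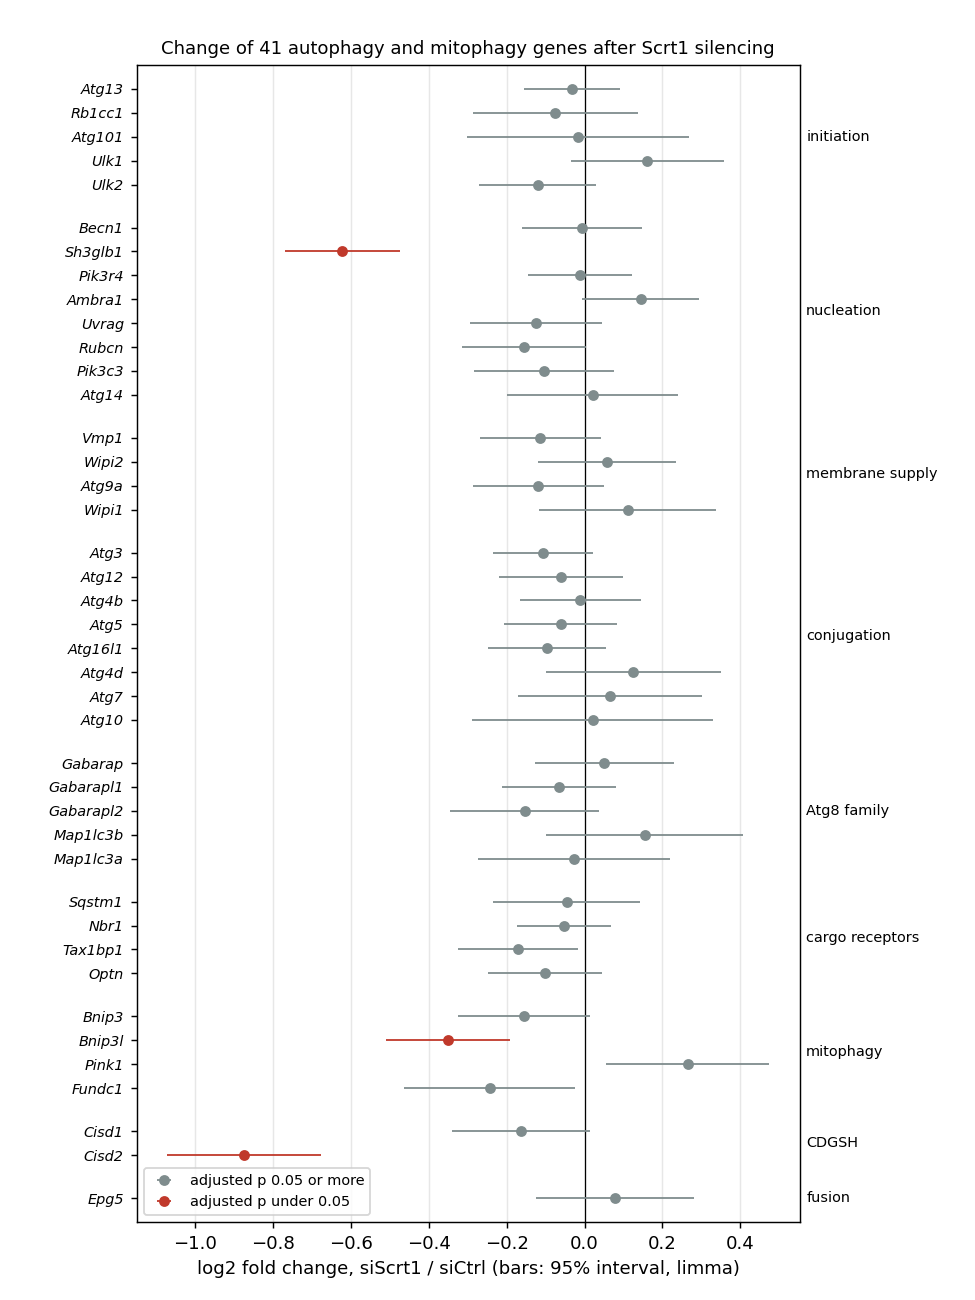
Log2 fold change of the same 41 genes, siScrt1 against siCtrl, with the 95% interval of the limma fit (red, adjusted p-value under 0.05; gray, 0.05 or more). Cisd2 at -0.88, Sh3glb1 at -0.62 and Bnip3l at -0.35 stand to the left, and Pink1 at 0.26 is the farthest to the right.

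Autophagy starts with the ULK complex, made of the kinases Ulk1 or Ulk2 with Atg13, Rb1cc1 (FIP200) and Atg101. Its 5 members had mean levels from 8.77 TPM for Ulk2 to 64.2 TPM for Atg13. None passed the test, and the log2 fold changes lay between -0.12 for Ulk2 and 0.16 for Ulk1 (lowest limma adjusted p = 0.550).

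Nucleation of the membrane depends on the lipid kinase Pik3c3 (Vps34), its regulatory subunit Pik3r4 (Vps15) and Becn1 (Beclin 1), which join either Atg14 or Uvrag. Sh3glb1 was the single one of the 8 members of this step that passed the test. None of its partners passed. Becn1 had 49.6, 60.5, 56.4, 56.3 and 55.0 TPM in siCtrl and 52.4, 53.0, 58.6, 57.3 and 60.0 TPM in siScrt1 A to E. The groups overlapped over most of their range, and the log2 fold change of -0.01 (adjusted p = 0.981 in limma, SE 0.0714) turned to 0.01 under upper-quartile scaling.

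Pik3r4 had 14.8, 16.9, 16.7, 15.99 and 14.5 TPM in siCtrl and 14.99, 15.8, 15.96, 16.1 and 15.7 TPM in siScrt1, with all siScrt1 libraries inside the range of the controls. Pik3c3 had 8.09, 9.54, 9.02, 10.1 and 9.27 TPM in siCtrl and 8.19, 7.86, 8.08, 9.34 and 9.49 TPM in siScrt1, where 2 siScrt1 libraries were below all controls. Uvrag, which ties Bif-1 to Beclin 1, had 13.5, 12.4, 11.8, 12.1 and 12.6 TPM in siCtrl and 13.5, 10.5, 10.4, 11.7 and 11.6 TPM in siScrt1. The Uvrag levels of siScrt1 were below the controls except in library A. The log2 fold changes were -0.01 for Pik3r4, -0.10 for Pik3c3 and -0.13 for Uvrag, and none passed the test (limma adjusted p = 0.968, 0.684 and 0.597).

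Within each library, the level of Sh3glb1 was set against each of these partners. On the TPM scale the ratio of Sh3glb1 to Becn1 was 0.715 ± 0.0363 in siCtrl and 0.461 ± 0.0490 in siScrt1 (n = 5 each, ± SD), the ratio to Pik3r4 went from 2.52 ± 0.183 to 1.65 ± 0.167, the ratio to Pik3c3 from 4.32 ± 0.302 to 3.03 ± 0.402, and the ratio to Uvrag from 3.18 ± 0.235 to 2.26 ± 0.238. All 4 ratios were lower in every siScrt1 library than in any siCtrl library. The closest approach was in the ratio to Uvrag, with 2.81 in the lowest control library and 2.66 in the highest siScrt1 library. The differences of the mean log2 ratios were -0.62 for Becn1, -0.61 for Pik3r4, -0.52 for Pik3c3 and -0.50 for Uvrag, each with an exact two-sided permutation p = 0.00794 and the same value after Benjamini-Hochberg adjustment over the 6 ratios computed. Compared within same-numbered pairs of libraries, each ratio was lower in all 5 pairs, which gives an exact sign-flip p = 0.0625, the smallest that 5 pairs allow. As Sh3glb1 was singled out because it fell, these ratios restate its fall with the library as its own control and are not independent support for it.

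The remaining members of the step are regulators of the complex. Ambra1, which activates Beclin 1, had 13.7, 14.8, 13.01, 15.02 and 12.995 TPM in siCtrl and 15.4, 15.5, 16.3, 14.5 and 15.1 TPM in siScrt1, and Rubcn (Rubicon), a negative regulator of the UVRAG form of the complex, had 12.7, 11.3, 11.8, 12.2 and 13.3 TPM in siCtrl and 11.6, 10.9, 12.2, 10.5 and 9.98 TPM in siScrt1. For both genes the groups overlapped. The log2 fold changes were 0.14 and -0.16, and neither passed the test (limma adjusted p = 0.468 and 0.460). Atg14 stood at 3.97 TPM over all libraries, with a log2 fold change of 0.02.

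**Figure D3:**
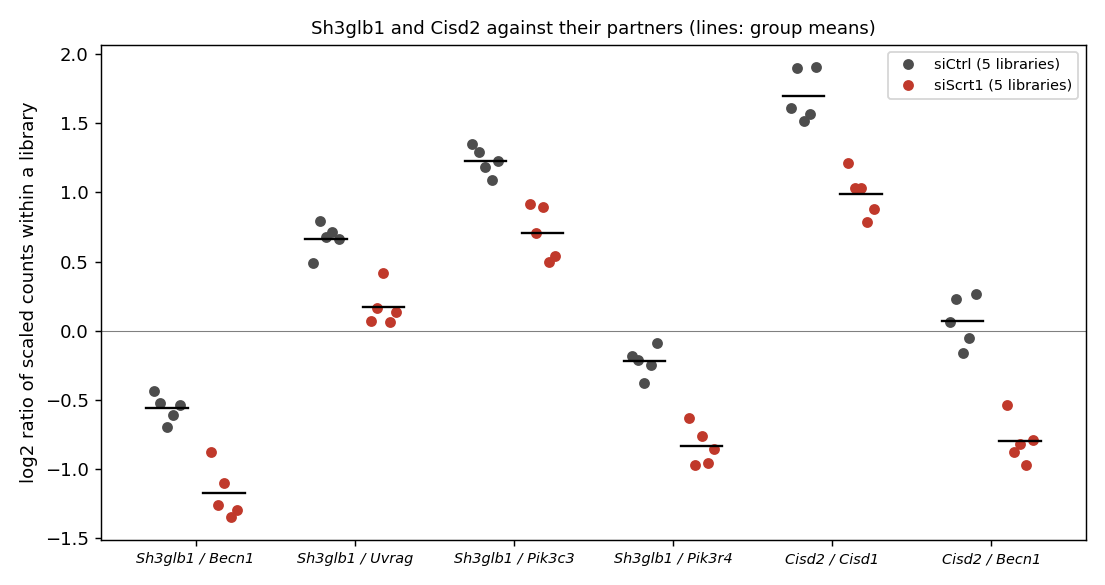
Log2 ratio of Sh3glb1 or Cisd2 to a partner gene within each library, from scaled counts, for 6 pairs (gray points, 5 siCtrl; red points, 5 siScrt1; lines, group means). In each pair all red points lie under all gray points, with differences of the means from -0.50 for Sh3glb1 to Uvrag to -0.87 for Cisd2 to Becn1.

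The 4 genes of membrane supply are Atg9a, a lipid scramblase carried on vesicles, the phosphoinositide-binding proteins Wipi1 and Wipi2, and Vmp1 of the endoplasmic reticulum. Their means ran from 9.59 TPM for Wipi1 to 39.3 TPM for Vmp1. The log2 fold changes lay between -0.12 and 0.11, with 2 below 0 and 2 above, and none passed the test (lowest limma adjusted p = 0.602).

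The conjugation machinery attaches Atg8 proteins to phosphatidylethanolamine. Its 8 members, the enzymes Atg3, Atg7 and Atg10, the proteases Atg4b and Atg4d and the Atg12, Atg5 and Atg16l1 proteins, had means from 4.44 TPM for Atg10 to 29.1 TPM for Atg3. None passed the test, with log2 fold changes between -0.11 and 0.12. Atg3, named after its values were seen, had 31.4, 31.3, 29.5, 28.7 and 31.1 TPM in siCtrl and 27.5, 27.6, 26.5, 28.7 and 28.8 TPM in siScrt1. The groups touched in TPM and were just apart in scaled counts, with a log2 fold change of -0.11 (adjusted p = 0.541 in limma, SE 0.0590).

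The 5 members of the Atg8 family were all well expressed, from 26.6 TPM for Map1lc3a to 365 TPM for Gabarap. Gabarap made up 55.1% ± 1.36 of the TPM of the family in siCtrl and 56.4% ± 1.70 in siScrt1 (n = 5 each, ± SD), so that the GABARAP branch, with Gabarapl1 at 16.2% and Gabarapl2 at 13.1% in siCtrl, exceeded the LC3 branch, with Map1lc3b at 11.4% and Map1lc3a at 4.11%. Reads of such similar genes can be shared between them by the quantification. The makeup of the family differed little between the groups, with ranges that overlapped for each member. The log2 fold changes ran from -0.15 for Gabarapl2 to 0.15 for Map1lc3b, and none passed the test (lowest limma adjusted p = 0.557).

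Cargo receptors carry ubiquitinated proteins and organelles to the Atg8 proteins. Sqstm1 (p62) had the highest level of the 42 genes, 472 TPM over all libraries, and made up 69.5% of the TPM of the 5 receptors in siCtrl and 70.7% in siScrt1. All 5 log2 fold changes were below 0, from -0.24 for Calcoco1 to -0.05 for Sqstm1, and none passed the test. Tax1bp1 had 85.8, 104.7, 86.2, 85.3 and 89.5 TPM in siCtrl and 81.5, 77.9, 73.6, 84.8 and 84.1 TPM in siScrt1. The groups did not overlap but nearly met, at 85.3 and 84.8 TPM, and siCtrl 2 stood above the other controls. Its log2 change was -0.17 (adjusted p = 0.379 in limma, SE 0.0711). Calcoco1 had 0 to 67.6 reads in siCtrl and 0 to 56.1 in siScrt1. It was at 0 in 2 libraries of each group, so its change could not be measured (SE 1.76). The zeros did not follow depth. Library A of siScrt1 held 56.1 reads of Calcoco1 at 11901342 reads in total, and library E held 0 at 15329171. The cause was not tested.

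Among the 4 mitophagy genes, Bnip3l (ENSRNOG00000009820), also known as NIX, had 34.2, 36.6, 32.3, 33.1 and 37.8 TPM in siCtrl and 32.1, 25.4, 26.7, 26.0 and 26.9 TPM in siScrt1 A to E. Library A of siScrt1 almost reached the lowest control, and the other 4 siScrt1 libraries were well below. The means were 34.8 ± 2.31 and 27.4 ± 2.66 TPM (SD, n = 5 each). The fitted log2 change was -0.35 (SE 0.0733, adjusted p = 0.0415 in limma). This call was close to the threshold. It was lost in 8 of the 10 fits that left out 1 library (limma adjusted p from 0.0110 without siScrt1 A to 0.133 without siScrt1 D). It was also lost with upper-quartile scaling, TPM values or no filter on low counts (limma adjusted p from 0.0513 to 0.0628). The log2 fold change stayed between -0.41 and -0.32 in all of these.

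Pink1 encodes the kinase that marks damaged mitochondria. It had 22.2, 23.1, 29.3, 25.0 and 26.7 TPM in siCtrl and 27.5, 32.8, 29.6, 30.8 and 31.9 TPM in siScrt1. Only siCtrl 3 reached into the range of siScrt1. The log2 fold change of 0.26 (SE 0.0969, unadjusted p = 0.0172) did not pass the test across all genes (limma adjusted p = 0.297). Fundc1, a receptor of the outer mitochondrial membrane, had 11.5, 14.4, 13.4, 10.2 and 11.9 TPM in siCtrl and 10.0, 9.06, 11.1, 10.5 and 11.1 TPM in siScrt1, with overlapping groups and a log2 fold change of -0.24 (adjusted p = 0.379 in limma). Bnip3, the paralog of Bnip3l, was the most abundant of the step at 108 TPM, with a log2 fold change of -0.16 (adjusted p = 0.497 in limma).

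Taken as shares of the summed TPM of the 4 mitophagy genes, Bnip3 held 61.1% in siCtrl and 59.8% in siScrt1, Bnip3l 18.7% and 16.1%, Pink1 13.6% and 17.95%, and Fundc1 6.57% and 6.10%. The share of Pink1 ran from 11.3% to 15.7% in siCtrl and from 15.9% to 19.9% in siScrt1, and the shares of the other 3 genes overlapped between the groups. In its own TPM the groups of Pink1 overlapped. A share also rises when the rest of the sum falls, and Bnip3 and Bnip3l, most of this sum, had log2 fold changes of -0.16 and -0.35. The gap in the share of Pink1 is therefore no separate result. These shares are a description and were not tested.

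Cisd1 and Cisd2 encode small membrane proteins with the CDGSH type of iron-sulfur cluster. CISD1 (mitoNEET) sits in the outer mitochondrial membrane, and CISD2 also in the endoplasmic reticulum, where it binds BCL2 and takes part in holding back Beclin 1. Cisd1 had 52.7, 58.0, 57.2, 58.4 and 55.5 TPM in siCtrl and 46.3, 45.0, 49.1, 54.6 and 58.4 TPM in siScrt1. Libraries D and E of siScrt1 reached the levels of the controls and the other 3 lay below them, with a log2 fold change of -0.16 (adjusted p = 0.491 in limma, SE 0.0816).

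The ratio of Cisd2 to Cisd1 on the TPM scale was 0.644 ± 0.0849 in siCtrl and 0.393 ± 0.0446 in siScrt1 (n = 5 each, ± SD), a difference of -0.71 in mean log2 ratio. Cisd2 thus made up 39.1% ± 3.10 of the pair in siCtrl and 28.1% ± 2.29 in siScrt1. Against Becn1 the ratio went from 0.653 ± 0.0707 to 0.352 ± 0.0307, a difference of -0.87 in mean log2 ratio. Neither ratio overlapped between the groups (exact two-sided permutation p = 0.00794 each, also after adjustment over the 6 ratios, and p = 0.0625 by sign flips of the 5 same-numbered pairs). Cisd2 too was singled out because it fell.

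**Figure D4:**
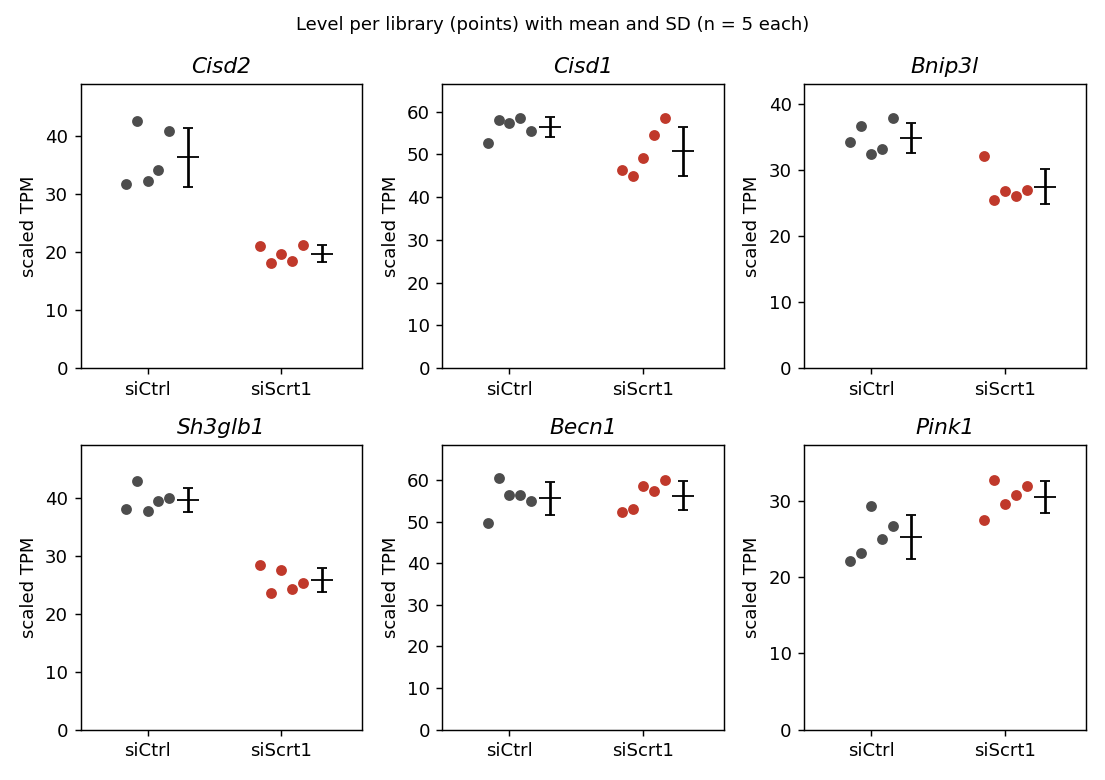
TPM of the 3 lowered genes, of Cisd1 and Becn1 as partners and of Pink1 in each library (points; siCtrl 1 to 5 and siScrt1 A to E from left to right), with the mean and SD of each group (black bars, n = 5) on axes that start at 0. Cisd2 drops from 36.3 to 19.8 TPM and Sh3glb1 from 39.7 to 25.8 TPM with no overlap, while for Becn1 the groups lie on top of each other.

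Epg5, a tether for the fusion of autophagosomes with lysosomes, stood at 5.96 TPM with a log2 fold change of 0.08 (adjusted p = 0.801 in limma).

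Over the 42 genes, 4 had a mean of at least 100 TPM (Sqstm1, Gabarap, Bnip3 and Gabarapl1), 29 lay between 10 and 100 TPM, 8 between 1 and 10 TPM, and Calcoco1 was under 1 TPM. The log2 fold change was below 0 for 30 of 42 (71.4%), against 49% of all genes tested, and the median was -0.06 against 0.0035 over all genes. Under the other scalings, measures and filters 27 to 30 were below 0, and with 1 library left out 25 to 31. The SD of the member median between replicates was 0.035. Cisd2 and Sh3glb1, known to be lowered when the list was made, are among the 30. Genes of 1 library can move together, so the 42 signs are not independent observations, and their direction was not tested. Beyond the 3 called genes the shifts were small. For the 38 other members apart from Calcoco1, each 95% interval lay within -0.5 and 0.5 on the log2 scale, with a median half-width of 0.173 and a widest of 0.310 (Atg10), so a change of 0.5 or more was outside the interval of each.

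The groups did not overlap in scaled counts for 5 members (11.9%), all lower in siScrt1, namely Cisd2, Sh3glb1, Bnip3l, Tax1bp1 and Atg3, against 3.51% of all genes tested, 2.03% on the lower side and 1.48% on the higher side. In the comparison of libraries that bear the same number in the deposited table, 6 members (14.3%) were lower in all 5 pairs, those 5 and the cargo receptor Nbr1, against 9% of all genes. None was higher in all pairs, against 8.01% of all genes (17% in either direction). Cisd2 and Sh3glb1, known to be lowered when the list was made, are among the 5 and among the 6.

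The 42 genes had 71 transcripts in the table, with 24 genes represented by 1 transcript and the others by up to 6. Of the 65 transcripts tested, 2 (3.08%) passed, those of Cisd2 and the major one of Sh3glb1, against 0.415% of all transcripts. Both belong to the genes known to be lowered when the list was made. A further comparison without adjustment gave 9 (13.8%) with a p-value under 0.05, against 9.33% of all transcripts. The transcript of Bnip3l, the single one of its gene, missed the threshold in this test (limma adjusted p = 0.0852). For Optn, a receptor for ubiquitinated mitochondria, the transcript ENSRNOT00000074087 had 151 to 346 reads in siCtrl and 20 to 253 in siScrt1, a log2 fold change of -1.39 (SE 0.4996) that did not pass (limma adjusted p = 0.414). Its share of the reads of Optn was 18.04% ± 6.99 and 8.93% ± 6.49 (SD, n = 5 each), and the gene as a whole had a log2 fold change of -0.10. Of the other tested transcripts of Optn, ENSRNOT00000083342 (log2 fold change 0.47) and ENSRNOT00000091561 (0.43) were above 0. ENSRNOT00000042881 (-0.01) and ENSRNOT00000081940 (-0.31) were below 0, and none of these passed. Such splits between overlapping isoforms are estimates of the quantification.

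The wider pathway was covered by 50 further tested genes of autophagy, none of them a member. Of these 50, 1 was raised and 0 were lowered by limma, where 0.371% of all genes tested were raised and 0.68% lowered. Without adjustment, 3 were higher and 4 lower at a p-value under 0.05, close to the 5.34% and 5.75% of all genes, and the median log2 fold change was -0.01. The raised gene was Fyco1, an adaptor that links autophagosomes to kinesin for transport along microtubules. It had 7.66, 6.51, 7.55, 7.58 and 7.68 TPM in siCtrl and 9.49, 9.95, 10.1, 10.9 and 10.8 TPM in siScrt1. All siScrt1 libraries were above all controls, with a log2 fold change of 0.43 (adjusted p = 0.00651 in limma, SE 0.0655). The next by unadjusted p-value were Nipsnap2, a mitochondrial protein that recruits autophagy receptors to damaged mitochondria, and March5, a ubiquitin ligase of the outer mitochondrial membrane. Nipsnap2 had 26.9, 28.3, 27.2, 26.5 and 27.7 TPM in siCtrl and 23.4, 25.1, 26.7, 24.02 and 23.2 TPM in siScrt1, and March5 had 26.2, 30.4, 26.5, 24.1 and 25.2 TPM in siCtrl and 24.5, 22.6, 23.4, 23.7 and 22.1 TPM in siScrt1. In TPM the groups overlapped for both genes. Both had a log2 fold change of -0.19, and neither passed the test (limma adjusted p = 0.204 and 0.317).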

How the data were processed

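RNA-seq reads of the 10 libraries (single-end) were quantified by the authors with kallisto on the Rnor6 transcriptome. Versions were not given in the sources used here. The deposited table gives an estimated count and a TPM per transcript and library, and the authors tested differential expression with Sleuth. How the deposited signal values were scaled is not given in the sources used here. They look scaled between libraries, since TPM sums ran from 821278 to 1153952, and were taken neither as raw counts nor as true TPM. The 9363 rows without a value were left out. Low counts were multiples of a step of 0.842 to 1.26, taken as the worth of 1 read, and division by it gave the reads and CPM quoted; 76.2% of gene values came out whole within 0.01.

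Values of all transcripts of a gene were added up by Ensembl gene identifier. Scaled counts were tested as log2(value + 0.5), a scale that understates changes of low genes, with limma 3.58.1 (lmFit, eBayes with trend; R 4.3.3) with the group as single term and Benjamini-Hochberg adjustment over 12941 genes. Genes needed the CPM of 10 reads in a median library in at least 5 libraries and at least 15 reads in total. All 42 members passed. Transcripts needed 5 reads in at least 47% of libraries. Ratios and single values were compared with exact two-sided permutation tests (scipy 1.17.1). The group-only gene fit was also run on simulated libraries drawn independently of each other, unlike the same-numbered libraries here. No result here rests on that run. Sequences came from RefSeq promoter entries (GRCr8), matched by symbol for 36 members.

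Values per library were given for Sh3glb1, Cisd2, their partners, the members that passed, the 5 next by unadjusted p-value, and the 3 leading genes of the wider list, and for Scrt1 as the check of the labels. Atg3 was added after its values were seen, and the transcripts of Optn were not among the genes chosen beforehand either. Members, lists and tests were chosen with earlier results of these data known. Depth limits low genes. The spread of Calcoco1, from 0 to 67.6 reads, did not follow depth, and its cause was not tested. Alternatives were other scalings, TPM with a pseudocount of 1 or 0.1, a pseudocount of 5, other filters, limma-voom on recovered reads, leaving out each library, and a replicate block. The table, but not the labels, numbers the libraries 1 to 5 in each group (A to E being 1 to 5). Deviations from the group means of same-numbered libraries correlated at 0.351, 0.131, 0.231, 0.198 and 0.234 across genes. For number 2, the highest correlation with a library of another number was larger, at 0.167. The numbers were taken to pair the samples only in the replicate block, the sign-flip tests and the counts over same-numbered pairs. The main fits and the permutation tests were unpaired.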

Additional observations from a re-analysis of the deposited data

Results flagged for a closer look

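In 6 of 86 groups of 5 libraries examined (the 42 genes and Scrt1 in each group), 1 library lay far from the other 4 of its group in TPM, where chance gives about 1 in 20, or 4. Bnip3l was at 32.1 TPM in siScrt1 A, with the others from 25.4 to 26.9, and its fall is the one called result among the 6 genes (without this library the limma adjusted p-value is 0.0110). Tax1bp1 was at 104.7 TPM in siCtrl 2 (others 85.3 to 89.5) and Map1lc3a at 34.5 TPM in siCtrl 3 (others 23.5 to 26.4). The low libraries were siCtrl 5 for Wipi1 at 8.20 TPM (others 9.21 to 9.56), siScrt1 A for Atg7 at 4.42 TPM (others 5.44 to 5.60) and siCtrl 3 for Epg5 at 4.63 TPM (others 5.88 to 6.37).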

How the results depend on the processing

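Cisd2 and Sh3glb1 passed the threshold in all 19 alternatives, with limma adjusted p-values from 0.000748 to 0.00452 and from 0.00082 to 0.00640. Bnip3l kept its direction throughout but lost the call with upper-quartile scaling (log2 fold change -0.33), log2(TPM + 1) (-0.34), log2(TPM + 0.1) (-0.34) and no filter (-0.35), so that the count of lowered members was 2 or 3, and 2 or 3 also when each library was left out in turn. Over all genes, the count of 136 rose to 259 with the replicate block, was 96 to 162 in the other alternatives, and ran from 62 to 133 with 1 library left out (62 without siScrt1 D, 64 without E, 77 without siCtrl 5, 82 without siCtrl 4, 83 without siScrt1 B, 87 without C). The block changed the call of no member. With the replicate block the differences in log2 ratio stayed at -0.62, -0.61, -0.52 and -0.50 for Sh3glb1 to Becn1, Pik3r4, Pik3c3 and Uvrag and at -0.71 and -0.87 for Cisd2 to Cisd1 and Becn1, with an exact sign-flip p = 0.0625, the smallest value for 5 pairs. With 1 library left out these differences ranged from -0.69 to -0.57, -0.66 to -0.58, -0.57 to -0.47, -0.56 to -0.47, -0.77 to -0.66 and -0.93 to -0.82. The median change of the members ran from -0.080 to -0.032, the number of changed member transcripts from 2 to 3, and the wider list had 1 changed gene throughout. Of the 42 members, 32 kept their sign in every alternative. With all libraries, Becn1 turned to 0.0081 (upper quartile), 0.018 (TPM + 1) and 0.019 (TPM + 0.1), Pik3r4 to 0.0049 and Atg4b to 0.0050 (upper quartile). With 1 library left out the sign turned for 10 members, none of them called: Becn1 ranged from -0.054 to 0.034, Pik3r4 from -0.041 to 0.016, Atg4b from -0.040 to 0.020, Atg101 from -0.087 to 0.072, Atg14 from -0.04 to 0.063, Atg10 from -0.066 to 0.11, Map1lc3a from -0.091 to 0.069, Gabarap from -0.0081 to 0.10, Sqstm1 from -0.11 to 0.0088, and Calcoco1 from -1.19 to 0.66. The cause of these shifts was not tested. The spread of reads between libraries limits what can be said of Calcoco1, which had no value under the stricter filter.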
